A study of Homo sapiens with 8 samples.

Results

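The protein-coding genes whose longest isoform spans 300 kb or more, hereafter the long genes, were examined for RNA polymerase II (RNAPII) peaks. Of 19792 protein-coding genes in the GENCODE release 44 annotation in GRCh37 (hg19) coordinates, 751 met this length, and 2 further genes of that length were not analysed here. Lengths ran from 300.6 to 2472 kb with a median of 446.7 kb, 288 genes reached 500 kb and 64 reached 1000 kb. RNAPII chromatin immunoprecipitation sequencing (ChIP-seq) was done in MDA-MB-453, an established human breast cancer cell line used as a model of triple negative disease. Cells received vehicle or 600 nM CDDD11-8 for 4 h with 2 libraries per treatment. CDDD11-8, written D11-8 in the sample labels, is an inhibitor of cyclin-dependent kinase 9 (CDK9). The 2 libraries of each treatment came from consecutive passages of 1 cell line, so the spread between them is that of repeat cultures. Each library had its own chromatin input, and the 4 inputs enter the results here only through the authors' peak calls.

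CDK9 is the kinase of the elongation factor P-TEFb, and it releases RNAPII that has paused shortly after the transcription start site (TSS). Once released, RNAPII must cross the whole gene to the transcription end site (TES), and for the longest human genes this crossing takes hours. Many very long genes code for neuronal adhesion molecules, ion channels, cell junction and signalling proteins. Several very long genes span common fragile sites, regions that break under replication stress.

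The 4 peak lists differed in size. The vehicle libraries held 78306 and 57493 peaks and the CDDD11-8 libraries 25897 and 21842, where summits that share a region count as 1 peak. The authors state a minimum number of reads per sample, but the lists give no read totals. The exact depth of each library is therefore unknown. How many peaks a list holds also depends on the depth and scaling of its library. Treatments were compared through a single value for each library, with an exact permutation test (two-sided) that cannot go below p = 0.33 for 2 against 2 libraries. No difference between treatments could therefore pass a threshold of 0.05, and differences are given with the values of all 4 libraries. Promoters of the luminal genes FOXA1, GATA3, KRT8, KRT18, XBP1, SPDEF and ERBB2 held a peak in all 4 libraries. No library held a promoter peak at the basal genes KRT5, KRT14 and TP63 or at the leukocyte gene PTPRC, and 1 library held one at the stromal gene COL1A1.

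Most long genes carried no RNAPII peak at their start. A promoter peak was a peak overlapping the 300 bp either side of the TSS of the longest isoform. The vehicle libraries showed one at 227 and 241 of the 751 long genes, and the CDDD11-8 libraries at 257 and 240. The means, 234 ± 9.90 with vehicle and 248.5 ± 12.0 with CDDD11-8 (SD, n = 2), overlapped between treatments (exact permutation test, p = 0.67). All 4 libraries showed the peak at 214 long genes, hereafter the start-bound genes, or 28.5%, against 49% of all protein-coding genes. Another 484 long genes, 64.4%, held no promoter peak in any library. From 100 kb upward the share was lower with each step in length. In vehicle replicate 1 it was 48.8% among genes of 100 to 300 kb, 34.6% at 300 to 500 kb, 23.7% at 500 to 1000 kb and 21.9% at 1000 kb or longer. In CDDD11-8 replicate 1 the same shares were 53.4%, 39.5%, 26.8% and 21.9%.

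**Figure D1:**
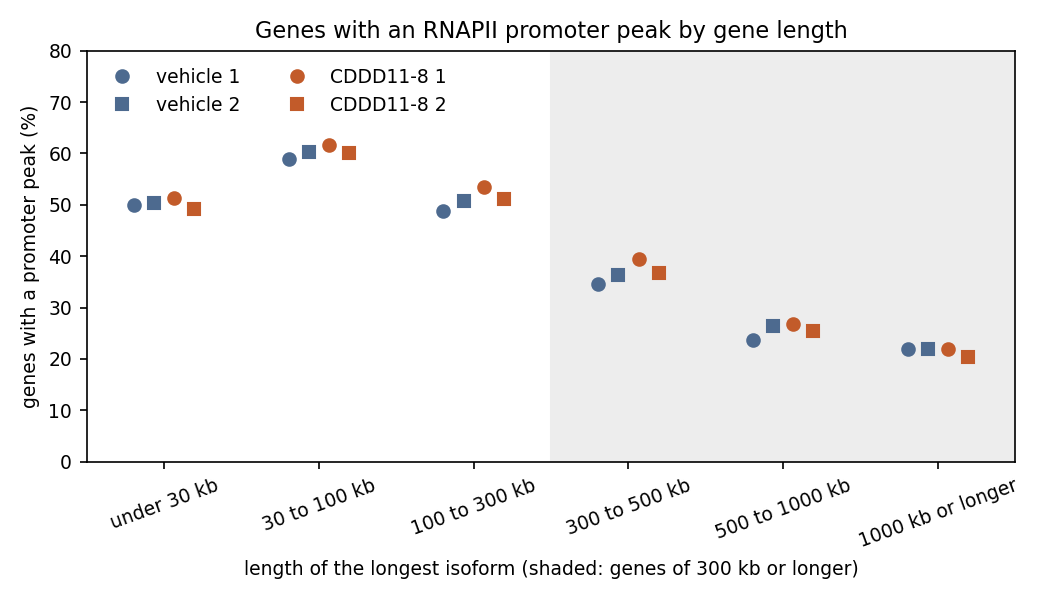
Share of protein-coding genes with an RNAPII promoter peak (vertical axis, %) in 6 classes of gene length (horizontal axis), with 1 point per library. In the shaded classes of 300 kb or longer every library lies below its own value for genes of 100 to 300 kb, and vehicle (blue) and CDDD11-8 (orange) points lie close together.

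The sequence before the TSS went with the presence of a peak, which the choice of genes by length did not use. CpG dinucleotides cluster in the promoters of widely expressed genes. In the 200 bases before the TSS, start-bound long genes had a median of 20 CpG (quartiles 14 and 26), and those with none a median of 13 (quartiles 4 and 23). The ratio of observed to expected CpG was 0.6 or more at 192 of the 214, or 89.7%, and at 283 of the 484, or 58.5%. Over all protein-coding genes the corresponding shares were 87.0% and 34.4%, so that long genes without a peak more often had a CpG-rich start than other genes without one. These counts describe the genes and were not tested. The windows of the longest genes whose 200 bases lie outside the exons of every annotated transcript show the range. They are written 5′ to 3′ on the gene's strand with CpG in capitals. DLG2 (chr11:85339380-85339579, minus strand) and CTNNA3 (chr10:69523396-69523595, minus strand) were start-bound. RBFOX1 (chr16:5289603-5289802, plus strand) and EYS (chr6:66417120-66417319, minus strand) had none.
DLG2: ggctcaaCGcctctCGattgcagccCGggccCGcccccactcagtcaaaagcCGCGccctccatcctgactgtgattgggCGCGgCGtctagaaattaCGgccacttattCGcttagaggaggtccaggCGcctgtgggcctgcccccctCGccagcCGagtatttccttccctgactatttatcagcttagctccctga
CTNNA3: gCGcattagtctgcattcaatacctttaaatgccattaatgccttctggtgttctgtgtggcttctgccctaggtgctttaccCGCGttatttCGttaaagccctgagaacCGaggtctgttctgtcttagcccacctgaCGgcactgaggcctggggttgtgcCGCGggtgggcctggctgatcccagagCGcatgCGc
RBFOX1: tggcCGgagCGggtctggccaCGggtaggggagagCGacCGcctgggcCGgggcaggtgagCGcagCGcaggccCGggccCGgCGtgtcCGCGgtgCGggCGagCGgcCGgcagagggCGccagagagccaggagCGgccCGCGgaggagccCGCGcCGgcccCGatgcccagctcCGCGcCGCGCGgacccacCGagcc
EYS: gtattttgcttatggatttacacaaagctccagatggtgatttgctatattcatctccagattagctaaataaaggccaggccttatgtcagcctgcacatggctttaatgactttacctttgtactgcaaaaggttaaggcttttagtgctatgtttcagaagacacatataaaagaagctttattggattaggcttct
RBFOX1, a neuronal splicing regulator, had 31 CpG in this window and no peak, whereas DLG2, which codes for a synaptic scaffold protein, had 14 CpG and a peak in every library. EYS, a photoreceptor gene, had 0 CpG.

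A promoter peak seen with a single treatment was rare. At 12 long genes both CDDD11-8 lists but no vehicle list held a promoter peak, 1.6% against 1.13% of all genes, and 1 showed the reverse pattern, 0.133% against 0.788%. Among the longest of the 12, RANBP17, a nuclear transport receptor of the importin family, had a promoter fold enrichment of 12.7 and 8.14 in the CDDD11-8 libraries. The neuronal adhesion genes CNTN4 and CLSTN2, the kinase-like gene ULK4 and the transcription factor gene KLF12 had values of 2.54 to 5.42. OTUD7A, a deubiquitinase, was the 1 long gene bound at the start with vehicle alone, at a fold enrichment of 2.38 and 4.89. A fold enrichment is the caller's ratio of signal to local background, and since libraries were scaled differently it was read within a library.

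At the 214 start-bound genes, the promoter peaks of the CDDD11-8 libraries were wider and extended farther into the gene. Vehicle promoter peaks had a median width of 1984 and 2325 bp, and CDDD11-8 promoter peaks one of 3599 and 3297 bp. Measured from the TSS into the gene, the median reach was 822 and 1051 bp with vehicle and 1803 and 1613 bp with CDDD11-8 (exact permutation test, p = 0.33). At 162 of the 214 both CDDD11-8 peaks were wider than both vehicle peaks, 75.7% against 64.4% of all 9701 start-bound protein-coding genes, and at 6 both were narrower, 2.8% against 9.44%. CAMTA1, a calmodulin-binding transcription activator, showed this shape. Its promoter peak reached 148 and 68 bp past the TSS with vehicle and 1953 and 1990 bp with CDDD11-8.

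Beyond the first kilobases the order of the treatments was the other way round. Coverage, the percent of bases that lie inside a peak, averaged 50.4% with vehicle and 74.8% with CDDD11-8 between 0.3 and 2 kb after the TSS over the start-bound long genes, and 7.70% and 12.3% between 2 and 5 kb. From 5 to 10 kb it was 3.14% and 0.904%, from 10 to 20 kb 2.58% and 0.258%, and from 250 to 300 kb 1.81% and 0.0715%. Over the whole body, which began 300 bp past the TSS and ended 3 kb past the TES, coverage was 2.29% and 1.85% with vehicle and 0.630% and 0.540% with CDDD11-8. The means, 2.07 ± 0.313% and 0.585 ± 0.0638% (SD, n = 2), did not overlap (exact permutation test, p = 0.33). With equal numbers of peaks they were 1.31% and 0.610%.

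Counted gene by gene, the stretch next to the promoter decided the direction. Both CDDD11-8 values of body coverage were below both vehicle values at 52 of the 214, 24.3% against 44.9% of all 9701 start-bound genes, and above both at 97, 45.3% against 21.6%. When only the part beyond the first 10 kb was read, they were below at 61, 28.5% against 45.9% of the 4588 such genes of 30 kb or longer, and above at 10, 4.67% against 2.81%. The remaining 143 overlapped or were tied, and 110 of the 214 had no peak from 10 kb onward in any library. HDAC4, a histone deacetylase, was among the 10, with 0.766% and 0.190% of this stretch covered with vehicle and 2.10% and 1.07% with CDDD11-8.

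Body peaks were concentrated in a small set of long genes. Only 13 of the 214 were covered to 5% or more in both vehicle libraries, and these 13 held 66.2% and 70.8% of the covered body bases of all 214 with vehicle and 18.1% and 19.6% with CDDD11-8. At each of the 13 both CDDD11-8 values were below both vehicle values, also with equal numbers of peaks per library. Their median coverage, from the mean of 2 libraries per gene, was 15.2% with vehicle and 1.21% with CDDD11-8. Without them the mean body coverage of the other 201 was 0.726% with vehicle and 0.513% with CDDD11-8. Since the 13 were chosen for their vehicle values, these figures describe them and test nothing. Genes at 5% or more were not counted over all start-bound genes, so the concentration is not shown to be particular to long genes. In start-bound genes of 100 to 300 kb the mean with vehicle, 6.80%, also lay above the median, 1.84%. In the long genes these were 2.07% and 0.307%.

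**Figure D2:**
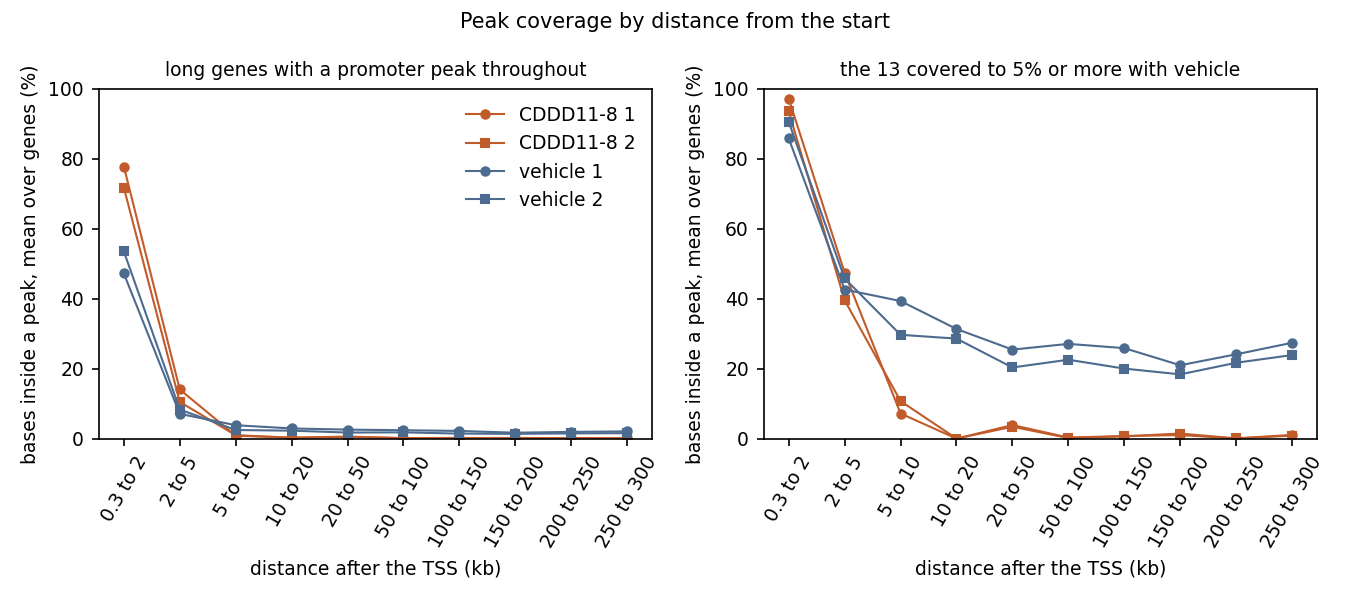
Mean percent of bases inside a peak (vertical axis) by distance after the TSS (horizontal axis, kb), per library, for the 214 start-bound long genes (left) and for the 13 of them covered to 5% or more with vehicle (right). On the right, coverage between 50 and 300 kb stays near 19.7 to 25.7% with vehicle and is at most 1.23% with CDDD11-8 on average.

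CERS6, PLCB4, KCNMA1 and KMT2C were covered from the start onward with vehicle and were nearly clear with CDDD11-8. CERS6, a ceramide synthase, had 43.8% and 40.8% of its body covered with vehicle and 1.36% and 1.47% with CDDD11-8, and beyond 100 kb it held 107 and 104 peaks with vehicle and 0 with CDDD11-8. PLCB4, a phospholipase C, had 23.7% and 22.3% against 1.01% and 0.909%, and its last summit lay at 418.7 and 417.3 kb with vehicle and at 4.52 and 4.33 kb with CDDD11-8. KCNMA1, a calcium-activated potassium channel, had 19.7% and 11.0% against 0.570% and 0.329%. The values of KMT2C, a histone H3 lysine methyltransferase, were 19.2% and 11.2% against 1.18% and 1.13%, and its last summit lay at 303.8 and 303.9 kb with vehicle and at 3.56 and 3.73 kb with CDDD11-8. With equal numbers of peaks the vehicle values were far lower. They were then 7.60% and 15.0% at CERS6, 2.23% and 7.12% at PLCB4, 1.81% and 2.58% at KCNMA1, and 4.23% and 1.45% at KMT2C, while no CDDD11-8 value of these genes was above 1.47%. SIPA1L3, a GTPase-activating protein, ranked among the 8 most covered start-bound genes through 1 library, with 24.0% in vehicle replicate 1, 4.38% in vehicle replicate 2, and 2.97% and 2.58% with CDDD11-8.

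**Figure D3:**
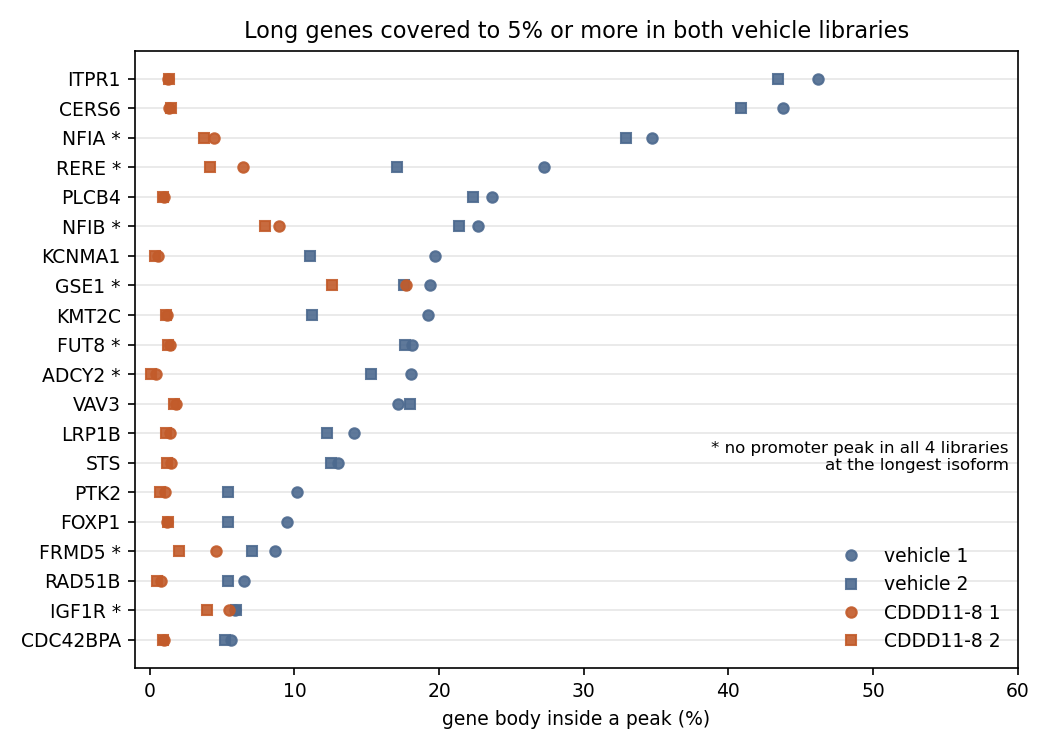
Percent of the gene body inside a peak (horizontal axis) for 20 of the 21 long genes covered to 5% or more in both vehicle libraries, with 1 point per library. CDDD11-8 points (orange) lie left of vehicle points (blue) in all but GSE1, and the asterisk marks the 8 genes that were not start-bound at the longest isoform. All 21 were chosen for their vehicle values, which favours this order, so it tests nothing.

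At ITPR1 and VAV3 the covered part began far inside the gene. ITPR1, the inositol trisphosphate receptor that releases calcium from the endoplasmic reticulum, had a promoter peak in every library and no peak between 10 and 180 kb in any. From 180 kb to the end 92.7% and 86.8% of its bases were covered with vehicle. With CDDD11-8 the value was 1.77% and 1.92%, mostly in a peak of 3091 and 2921 bp at 194.7 and 194.0 kb, 2.86 and 2.15 kb after the nearest annotated start upstream. VAV3, a guanine nucleotide exchange factor, had no peak between 10 and 270 kb in any library and 51.5% and 54.4% covered from there to the end with vehicle. With CDDD11-8 the latter was 4.64% and 3.84%, and the strongest peak, at 276.9 and 276.6 kb, lay at a start annotated for VAV3. The positions at which these stretches were divided were chosen after the values were seen.

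LRP1B, which codes for an endocytic receptor of the LDL receptor family and spans a common fragile site, had peaks far from any start in all 4 libraries. The gene lies at chr2:140988992-142888585 on the minus strand and is 1900 kb long. With vehicle its peaks ran from the promoter to 731.8 and 719.6 kb and stopped there, and no library held a peak beyond 750 kb. Coverage from 10 to 600 kb was 37.9% and 33.8% with vehicle and 0.0888% and 0.515% with CDDD11-8. From 600 to 720 kb it was 27.5% and 21.4% with vehicle and still 18.7% and 13.3% with CDDD11-8. The CDDD11-8 libraries held 18 and 18 peaks in that stretch, the first at 621.6 and 621.9 kb and the last at 717.8 and 718.1 kb after the TSS. None of the 19 and 25 CDDD11-8 peaks beyond 100 kb lay within 1 kb of an annotated start. Between 670 and 720 kb, bounds also chosen after the values were seen, there were 19 and 19 peaks with vehicle and 15 and 15 with CDDD11-8. Those peaks covered 11.5 and 9.08 kb with vehicle and 20.1 and 14.2 kb with CDDD11-8.

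The size of the peak lists touched this comparison. With equal numbers of peaks per library, coverage of LRP1B from 10 to 600 kb was 9.79% and 12.6% with vehicle, 0% in CDDD11-8 replicate 1 and 0.515% in replicate 2. From 600 to 720 kb it was 5.40% and 6.64% with vehicle, 15.8% in CDDD11-8 replicate 1 and 13.3% in replicate 2. The order of the treatments in that stretch therefore depended on which peaks were counted, while the order before 600 kb did not.

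**Figure D4:**
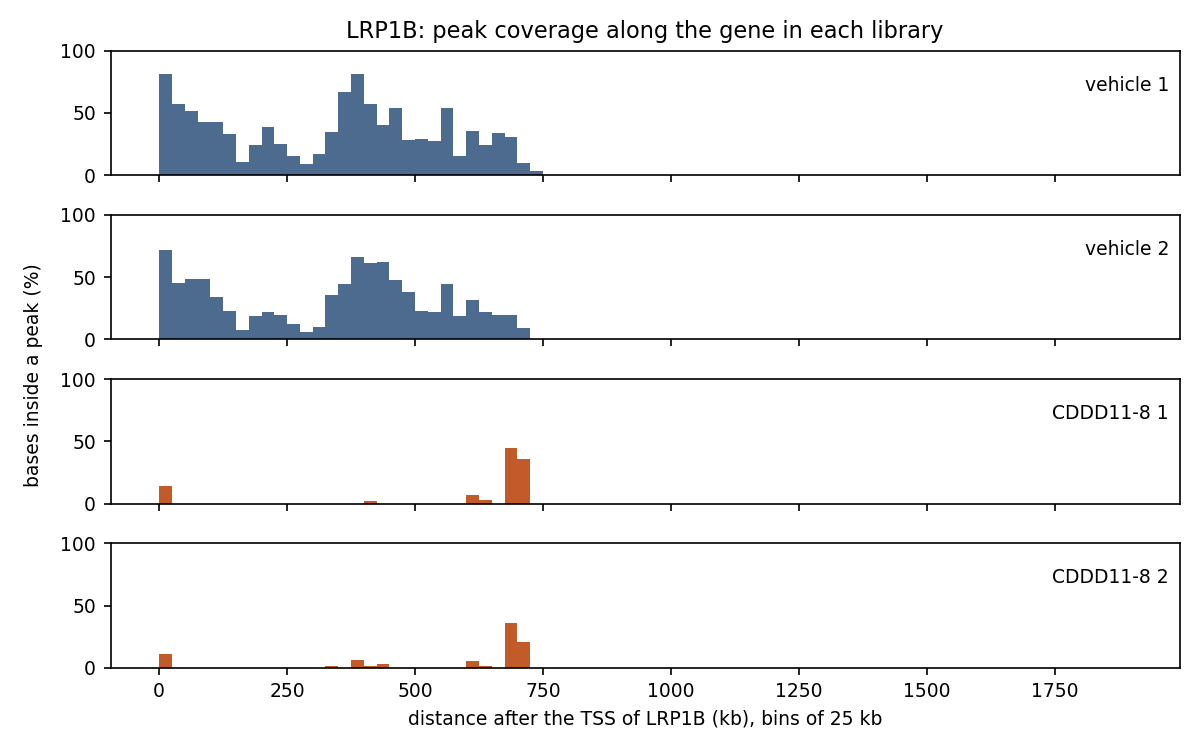
Percent of bases inside a peak (vertical axis) along LRP1B in bins of 25 kb (horizontal axis, kb after the TSS), with 1 panel per library. Both vehicle libraries are covered from the TSS to past 700 kb, both CDDD11-8 libraries mainly in the first bin and around 700 kb, and every library is empty beyond 750 kb.

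The window that follows marks the near end of the LRP1B stretch that both CDDD11-8 libraries shared. It is 200 bases of an intron, centred on the summit of CDDD11-8 replicate 1 at 621.6 kb after the TSS (chr2:142266913-142267112) and written 5′ to 3′ on the minus strand of GRCh37, with the summit and 5 bases either side in capitals.
LRP1B near end: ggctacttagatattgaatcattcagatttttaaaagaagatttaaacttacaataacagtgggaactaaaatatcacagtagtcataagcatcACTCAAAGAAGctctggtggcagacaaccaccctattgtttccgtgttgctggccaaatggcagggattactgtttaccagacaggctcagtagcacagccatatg
Both vehicle libraries also held a peak that overlapped this one.

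Over the 214 start-bound genes, a peak more than 100 kb after the TSS and before the TES, here a distal peak, was present at 80 and 68 with vehicle (37.4% and 31.8%) and at 39 and 28 with CDDD11-8 (18.2% and 13.1%). The difference was -18.9 percentage points (exact permutation test, p = 0.33). Both vehicle lists but no CDDD11-8 list held a distal peak at 31 of the 214, 14.5% against 21.4% of the 1423 start-bound genes over 100 kb, and both CDDD11-8 lists held one at 28, 13.1% against 8.92%. This contrast depended on the size of the peak lists. With equal numbers of peaks the mean shares were 17.1% with vehicle and 15.7% with CDDD11-8.

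The distal CDDD11-8 peaks lay partly at annotated starts and partly away from any start. In the 214 genes there were 98 and 90 distal CDDD11-8 peaks, of which 26 and 25 lay within 1 kb of an annotated start of any gene, 26.5% and 27.8%, against 8.88% and 10.1% of the 1622 and 1111 vehicle peaks. The peaks near starts were the wider ones, with a median of 2138 and 1550 bp against 643 and 526 bp. Of the 28 genes with a distal peak in both CDDD11-8 libraries, 7 had all their distal peaks near starts in both libraries and 15 had a peak away from starts in both. Only 25 and 21 of the peaks away from starts lay more than 100 kb beyond the nearest start upstream on the same strand, and LRP1B held 18 and 20 of these. Many of the peaks away from starts had no counterpart with vehicle. Over all 751 genes, 42.5% of the 221 in CDDD11-8 replicate 1 and 59.6% of the 178 in replicate 2 overlapped a peak in both vehicle libraries, whereas 93 and 57 overlapped none. In the start-bound genes, both CDDD11-8 libraries shared 30 regions of this kind, and 20 of these held a peak in both vehicle libraries.

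Among genes with peaks at internal starts, CLASP1, which binds the ends of microtubules, had 1 CDDD11-8 peak per library, 6126 and 4919 bp wide at 118.2 and 118.3 kb, over starts of CLASP1 itself, its antisense transcript and the small nuclear RNA gene RNU4ATAC. ARID1B, a subunit of the SWI/SNF remodelling complex, had a peak of 5355 and 4104 bp at 245.4 kb in both libraries at a start of its own. LDLRAD4, which dampens TGF-beta signalling, had one at 323.6 and 323.7 kb, and ACYP2, an acylphosphatase, one at 144.8 kb in both. ENSG00000273217 is a readthrough model across 2 genes, and its peak at 161.8 and 161.6 kb lay at the start of RAPGEF6.

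Among genes with peaks away from starts, SIPA1L3 had one at 151.3 and 151.2 kb, 94.7 and 94.5 kb from the nearest start upstream, with a fold enrichment of 16.5 and 8.66. HDAC4 had peaks at 218.7 and 218.6 kb and at 243.0 kb in both CDDD11-8 libraries. FHIT, the fragile site gene that codes for a diadenosine triphosphate hydrolase, had one at 475.6 and 476.0 kb with a fold enrichment of 10.1 and 5.48, and its last summit lay between 475.7 and 477.0 kb in all 4 libraries. Coverage of FHIT from 450 to 500 kb was 10.9% and 10.2% with vehicle and 5.23% and 5.71% with CDDD11-8, and beyond 500 kb it was 0% in every library.

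Examples of the sequence under such peaks are given for FHIT, SIPA1L3 and HDAC4, and for NFIA, which was chosen after its values were seen. For each gene the shared peak with the highest fold enrichment in CDDD11-8 replicate 1 was taken. At HDAC4 the order differed in replicate 2, with 2.91 at this peak and 5.05 at the one at 243.0 kb. Each window is intronic, 200 bases long, on the gene's strand of GRCh37, with the summit and 5 bases either side in capitals. They are FHIT at 475.6 kb (chr3:60761426-60761625, minus strand), SIPA1L3 at 151.3 kb (chr19:38549084-38549283, plus strand), HDAC4 at 218.7 kb (chr2:240103943-240104142, minus strand) and NFIA at 318.4 kb (chr1:61649280-61649479, plus strand).
FHIT: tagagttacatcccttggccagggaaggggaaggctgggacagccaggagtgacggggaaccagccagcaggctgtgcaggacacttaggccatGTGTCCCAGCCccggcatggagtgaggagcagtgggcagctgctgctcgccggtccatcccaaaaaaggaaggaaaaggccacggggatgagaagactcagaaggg
SIPA1L3: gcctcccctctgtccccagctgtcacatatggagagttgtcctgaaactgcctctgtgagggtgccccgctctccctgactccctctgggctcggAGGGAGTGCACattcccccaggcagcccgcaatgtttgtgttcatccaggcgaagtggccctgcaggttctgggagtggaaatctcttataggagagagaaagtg
HDAC4: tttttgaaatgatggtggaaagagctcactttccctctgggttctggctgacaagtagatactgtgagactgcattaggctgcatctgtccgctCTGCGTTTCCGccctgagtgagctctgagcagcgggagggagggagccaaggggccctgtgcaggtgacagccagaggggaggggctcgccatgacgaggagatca
NFIA: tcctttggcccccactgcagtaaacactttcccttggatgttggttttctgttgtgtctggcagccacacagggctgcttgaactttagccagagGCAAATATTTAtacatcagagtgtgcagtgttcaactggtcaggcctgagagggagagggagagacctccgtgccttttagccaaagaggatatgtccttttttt
GC content was 61% at FHIT, 58.5% at SIPA1L3, 57.5% at HDAC4 and 48.5% at NFIA. Short motifs of 5 transcription factor families were searched on both strands in such windows. The forkhead motif TGTTTAC was present in 9 of 96 windows that both CDDD11-8 libraries shared away from starts in all 751 genes, or 9.38%, and in 2.34% and 2.99% of the vehicle windows away from starts. The AP-1 motif TGANTCA was in 10.4% against 6.02% and 6.22%, the GATA motif AGATAA in 5.21% against 10.1% and 13.1%, and the TFAP2 motif GCCNNNGGC in 9.38% against 3.80% and 3.22%. The grainyhead-like motif AACCGGTT was in 0 of the 96 windows and in 0% and 0.0576% of the vehicle windows. At least 1 of the forkhead, GATA and AP-1 motifs was in 21.9% against 17.3% and 21.0%. Median GC content was 48.5% over the 96 windows and 46% and 42% over the vehicle windows, so the FHIT, SIPA1L3 and HDAC4 windows were richer in GC than most. The near-end window of LRP1B held the forkhead and AP-1 motifs, and that of NFIA the forkhead and TFAP2 motifs. A match describes letters and was not tested as a site.

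At the 3′ end, taken as the last 10 kb before the TES and the 3 kb after it, 58 and 44 of the 214 long genes held a peak with vehicle (27.1% and 20.6%) and 16 and 10 with CDDD11-8 (7.48% and 4.67%). The means were 23.8 ± 4.63% and 6.07 ± 1.98% (SD, n = 2, exact permutation test, p = 0.33). Both vehicle lists but no CDDD11-8 list held such a peak at 25, 11.7% against 30.4% of the 4588 start-bound genes of 30 kb or longer, and both CDDD11-8 lists held one at 9, 4.21% against 17.4%. No start-bound long gene showed it in both CDDD11-8 lists and neither vehicle list, and BTBD9 had 3′ end peaks in CDDD11-8 replicate 1 alone. With equal numbers of peaks the mean shares were 12.2% with vehicle and 5.52% with CDDD11-8.

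At each of the 9 genes with a 3′ end peak in both CDDD11-8 libraries, one such peak lay within 1 kb of an annotated start in both. Every 3′ end peak was within 1 kb of an annotated start at 8 of the 16 genes in replicate 1 and 9 of the 10 in replicate 2, against 7 of 58 and 7 of 44 with vehicle. CAMTA1 ends beside the start of VAMP3, and its peak there, 1869 and 1000 bp wide with vehicle, was 4579 and 3328 bp wide with CDDD11-8. RABGAP1L, a GTPase-activating protein of the Golgi, ends beside CACYBP, THADA beside ZFP36L2, UMAD1 beside GLCCI1, RALGPS1 beside GARNL3 and SPIDR, a DNA repair scaffold, beside CEBPD. The peak of CUX1, named after its values were seen, lay at SH2B2. TANC2 ends beside CYB561, and its window was covered to 39.1% and 41.6% with vehicle and to 11.5% and 4.56% with CDDD11-8. ITPR1 had 67.9% and 87.4% of its 3′ window covered with vehicle, CERS6 54.0% and 41.2%, and both had 0% with CDDD11-8.

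The farthest body summit per gene did not form a single distribution. Its median over the 214 start-bound genes, with genes without a body summit counted at 0, was 2.27 and 1.49 kb with vehicle and 1.89 and 1.57 kb with CDDD11-8, a difference smaller than the spread between libraries (exact permutation test, p = 1). This depended on the length limit. With genes of 200 kb or longer the medians averaged 24.4 kb with vehicle and 1.87 kb with CDDD11-8. In 108 genes of 300 kb or longer the last summit lay within 10 kb of the TSS in all 4 libraries. In 75 it lay beyond 100 kb in both vehicle libraries, of which 28 had it under 10 kb and 35 beyond 100 kb in both CDDD11-8 libraries. It lay in the final 10% of the gene or past its end in both libraries at 42 genes with vehicle and 12 with CDDD11-8. Both CDDD11-8 summits were nearer than both vehicle summits at 63 genes and farther at 32. These counts of last summits were not made over all start-bound genes, so they show nothing particular to the long genes.

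**Figure D5:**
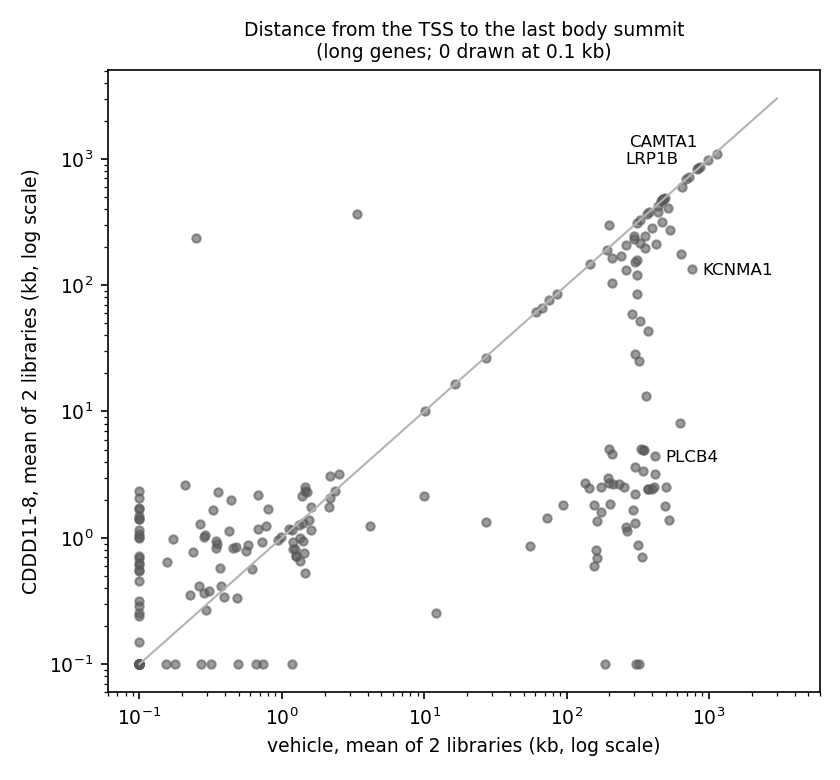
Distance from the TSS to the last body summit in the 214 start-bound long genes, vehicle (horizontal axis) against CDDD11-8 (vertical axis), each the mean of 2 libraries in kb on log scales, with the line of equal distance. PLCB4 lies at 418.0 and 4.42 kb, LRP1B at 725.7 and 717.9 kb, and most other points lie near the line or fall to a few kb with CDDD11-8.

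The 6 longest start-bound genes were DLG2, MACROD2, LRP1B, CTNNA3, ROBO2 and FHIT. Apart from LRP1B and FHIT, little of their body lay inside a called peak in these lists, whose exact depth is unknown. Body coverage of DLG2 was 0.0282% and 0.0262% with vehicle and 0.0993% and 0.0608% with CDDD11-8. That of CTNNA3, an alpha-catenin of cell junctions, was 0.00955% and 0.0211% against 0.0132% and 0.00960%, and ROBO2, an axon guidance receptor, had 0.0162% and 0.0313% against 0.0622% and 0.0443%. MACROD2, a hydrolase of ADP-ribose, had 0.0588% and 0.0850% against 0.102% and 0.0737%, and its last summit lay at 73.7 and 72.8 kb with vehicle and at 2.19 and 0.661 kb with CDDD11-8.

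By role, 7 of 20 genes at common fragile sites were start-bound, as were 9 of 21 polarity, junction and receptor phosphatase genes, 18 of 51 kinase, phosphodiesterase and GTPase signalling genes, and 14 of 42 transcription factor and chromatin genes. The shares were smaller among neuronal genes. Only 4 of 43 synaptic and neuronal adhesion genes (CADM1, NCAM2, ROBO2 and CTNND2) and 3 of 44 ion channel and receptor genes (KCNMA1, ITPR1 and ITPR2) were, 9.30% and 6.82% against 28.5% of all 751, and 1 of 8 RNA-binding genes was. Both CDDD11-8 values of body coverage lay below both vehicle values at 5 of the 14 transcription factor and chromatin genes and above at 4, below at 3 of the 18 signalling genes and above at 9, and below at 1 of the 9 polarity genes and above at 4. Among the 7 fragile site genes they lay below at 3 and above at 1, among the 4 adhesion genes below at 1 and above at 2, among the 3 channel genes below at 2 and above at 1, and at the RNA-binding gene neither. The median difference between treatments was -0.0964 percentage points for the transcription factor list, 0.0738 for the signalling list, 0.0529 for the polarity list, -0.00396 for the fragile site list, 0.00965 for the adhesion list, -14.9 for the channel list and 0.0202 for the RNA-binding gene, beside 0.0506 over all 214. Both directions occurred within each list of more than 1 start-bound gene, and the channel value rests on 3 genes. Over all 214 the values lay below at 24.3% and above at 45.3%, against 44.9% and 21.6% of all 9701 start-bound genes. Whole-body values include the stretch next to the promoter, and the lists were not tested against these shares. Of the 751 long genes, 533 were in no list.

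A further 59 of the 537 long genes that were not start-bound at the longest isoform had a peak in all 4 libraries at another annotated start, at a median of 150.9 kb from the first. With these, 273 of the 751, or 36.4%, had a peak at one of their starts in every library. Other starts were not counted over all protein-coding genes, so these counts show nothing particular to the long genes. Within the span of the longest isoform 384 had no peak in any library, among them 8 of the 59, whose bound start lay outside that span. NFIA, NFIB, GSE1 and IGF1R, named after their values were seen, belonged to the 59. Coverage of NFIA, a nuclear factor I transcription factor, was 34.7% and 32.9% with vehicle and 4.47% and 3.76% with CDDD11-8, and that of its paralogue NFIB 22.7% and 21.4% against 8.95% and 7.94%. With equal numbers of peaks NFIA had 13.3% and 16.3% with vehicle against 4.24% and 3.76% with CDDD11-8. The treatments then lay close together at NFIB, with 9.20% and 10.8% against 8.49% and 7.94%. The NFIA peak at 318.4 and 319.0 kb had a fold enrichment of 17.8 and 20.4 with CDDD11-8 and was also present in both vehicle libraries. GSE1, a subunit of a histone deacetylase complex, stayed covered, at 19.3% and 17.5% with vehicle and 17.7% and 12.6% with CDDD11-8, and these values overlapped. IGF1R, the insulin-like growth factor 1 receptor, had 5.92% and 5.94% against 5.50% and 3.94%.

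Genes of 100 to 300 kb, of which 1209 of 2569 were start-bound, were more covered than the long genes in every library. Their mean body coverage was 8.07% and 5.54% with vehicle and 2.70% and 2.12% with CDDD11-8. The difference between long and mid-length genes was -5.78 and -3.69 percentage points with vehicle and -2.07 and -1.58 with CDDD11-8, 2.91 points apart on average (exact permutation test, p = 0.33) and 0.637 points apart with equal numbers of peaks. Relative to the mid-length genes the order of the treatments was the other way round, since the long genes had 0.284 and 0.334 of their coverage with vehicle and 0.233 and 0.254 with CDDD11-8. As a ratio of CDDD11-8 to vehicle means, coverage was 0.283 in the long genes and 0.355 in the mid-length ones. For the share with a distal peak the ratio was 0.453 in the long genes and 0.270 in the mid-length genes, which have at most 200 kb beyond that distance, and for 3′ end peaks it was 0.255 and 0.281. The median last summit of the mid-length genes lay at 110.0 and 93.8 kb with vehicle and 2.39 and 2.11 kb with CDDD11-8.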

How the data were processed

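Reads were aligned by the authors to GRCh37 (hg19) with Bowtie2. Peaks were called by them in each ChIP library against its input with MACS2, at settings the authors describe as default. The versions of these tools are not given in the sources used here, and the settings were not checked. The deposited lists hold 1 row per summit with the authors' signal (pileup at the summit), fold enrichment (a ratio to local background) and −log10 q-value, which was at least 2.00 in each list. Summits sharing a start and end were merged into 1 peak, and a peak was counted in a window at an overlap of 1 bp. Gene ends came from the GENCODE release 44 annotation on GRCh37, and sequences were read from that genome. Windows, coverage and exact permutation tests were computed in Python 3.11.15 with numpy 2.4.6, pandas 2.3.3 and scipy 1.17.1, and plots were drawn with matplotlib 3.10.9. The code was tested on simulated peaks. No columns of the lists belonged to other samples, and the inputs were not analysed here.

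Named genes were the 8 most covered start-bound genes with vehicle, the 10 with the highest coverage beyond 100 kb among those with distal peaks in both CDDD11-8 libraries, the 8 with the highest coverage at the 3′ end among those with such peaks in both, the 6 longest, and the 6 longest in each direction with a promoter peak in a single treatment. Others are marked where named, and some genes and sequences that met these rules are not reported here. The genes, role lists and tests were chosen with earlier results of these data known. Alternatives were the q-value limit, equal numbers of peaks per library, single summits, window sizes, length limits, isolated genes, peaks away from other starts, a replicate block and leaving out each library, and, chosen after seeing the data, the canonical isoform and the set without the 13 most covered genes.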

Additional observations from a re-analysis of the deposited data

How the results depend on the processing

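Of 85 alternative values for the 6 comparisons, 79 kept their direction. With 2 libraries per treatment no alternative could pass 0.05, so direction and size are given. All 6 reversals concerned the median distance to the last body summit, which was -0.156 kb (CDDD11-8 minus vehicle) as reported. It was 0.36 kb at a −log10 q-value of at least 5, 0.88 kb with equal numbers of peaks, 0.13 kb in genes at least 3 kb from other protein-coding genes and 0.033 kb without peaks near other starts, and ranged from -0.55 to 0.24 kb when 1 library was left out, with 0.00475 kb without CDDD11-8 replicate 2 and 0.24 kb without vehicle replicate 1. The largest value in the reported direction was -22.6 kb, at a length limit of 200 kb with 477 start-bound genes. The cause of these changes was not tested. Leaving out 1 library gave 6 to 23 more promoter peaks with CDDD11-8, -1.70 to -1.26 percentage points of body coverage, -21.7 to -16.1 of distal peak share, -21.0 to -14.5 of 3′ end peak share and 1.86 to 3.96 for long against mid-length genes. With equal numbers of peaks these 5 values were 43, -0.703, -1.38, -6.63 and 0.637. Without the 13 most covered genes body coverage differed by -0.213. With the replicate block, body coverage again differed by -1.48 (sign-flip p = 0.5, the smallest possible, exact), and the deviations of same-numbered libraries correlated across the 214 genes at 0.18 (Pearson) and 0.11 (Spearman), and with 2 pairs this does not establish a pairing, since no source used here ties a number to a shared passage. Read totals of each library are not given, and the part of depth in the shorter CDDD11-8 lists was not tested.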
